A study of Mus musculus with 107 samples.

Results

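The livers described here are those with the highest and the lowest RNA levels of 3 lipid droplet genes, Cidec, Plin2 and Mogat1, in a mouse cross. The mice were chosen by these measured levels: each was scored by the mean of its standardised log ratios at the probes annotated to these genes, 1 probe for each gene. The 26 mice of highest score were called high and the 26 of lowest score low, which makes 52 of the 104 mice whose arrays held values. The other 52 are called middle mice.

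All mice were F2 females bred from C57BL/6J and DBA/2J parents, which are inbred strains, all were fed an atherogenic diet, and high and low mice differed by nothing the labels name. Their age is not given in the sources used here. Liver RNA of each mouse was compared with a common pool of RNA on a 2-colour array, and the labels describe that pool as made of equal portions of all samples. The labels state 111 mice, 107 arrays were analysed, and 3 of these (mice 24, 55 and 91) held no nonzero value. There was 1 array per mouse and no control group, so the pool is the only background.

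Values are log2 ratios of mouse to pool, so 0 is the pool's level and a difference of 1 is a doubling. They were deposited as log ratios whose base and direction the sources used here do not state. The base was taken as 10 because values end at exactly -2 and 2, which would be 100-fold, and under a natural logarithm every fold below would be smaller. Among 5356 pairs of arrays 7 correlated below -0.3, 2 of them among the high and low mice, so the direction was not settled. With all signs turned, high and low mice change places and every difference between them keeps its sign and size. In whole liver, fewer cells of a type and less RNA per cell cannot be told apart.

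Hepatocytes store triglyceride in droplets, a neutral lipid core under a coat of proteins. Plin2 is the main droplet coat protein of hepatocytes, Cidec promotes the fusion of small droplets into large ones, and Mogat1 is an acyltransferase that makes diacylglycerol from monoacylglycerol. Fatty acids released from droplets are ligands of PPAR alpha, the nuclear receptor that raises the genes of mitochondrial, peroxisomal and microsomal fatty acid oxidation, and Plin2 itself is a known PPAR target.

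The values of the score genes chose the mice and are therefore given without a test. Cidec ran from -0.89 over a median of 0.76 to 2.57 in high mice and from -2.87 over -1.41 to 0.77 in low mice. The mean difference was 2.10, which is 4.28-fold, and 13 of the 26 high mice lay above every low mouse. Cidec thus had the widest range of the 3 genes and the largest overlap between groups.

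Plin2 ran from -0.14 over a median of 0.55 to 1.23 in high mice and from -2.71 over -0.61 to 0.02 in low mice. Its mean difference was 1.27 (2.41-fold), and 24 high mice exceeded every low mouse. Mogat1 ran from -0.48 over 0.49 to 1.5 in high mice and from -1.47 over -0.50 to -0.11 in low mice, a mean difference of 0.96 (1.94-fold). No low mouse was above the pool for Mogat1, against 22 of 26 high mice.

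All 3 genes were above their mean over the 104 mice in 18 high mice and below it in 20 low mice, so the score did not always stand for all 3 genes. Over 104 mice, Pearson's r was 0.52 between Cidec and Plin2, 0.49 between Plin2 and Mogat1 and 0.31 between Cidec and Mogat1, given as a description since all come from the same arrays. Scores ran from 0.42 to 2.00 in the high group and from -2.21 to -0.52 in the low group. The group boundaries fell within a continuum. The last high mouse scored 0.4207 and the next mouse 0.4171, and the last low mouse scored -0.5171 and the next -0.4924.

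**Figure D1:**
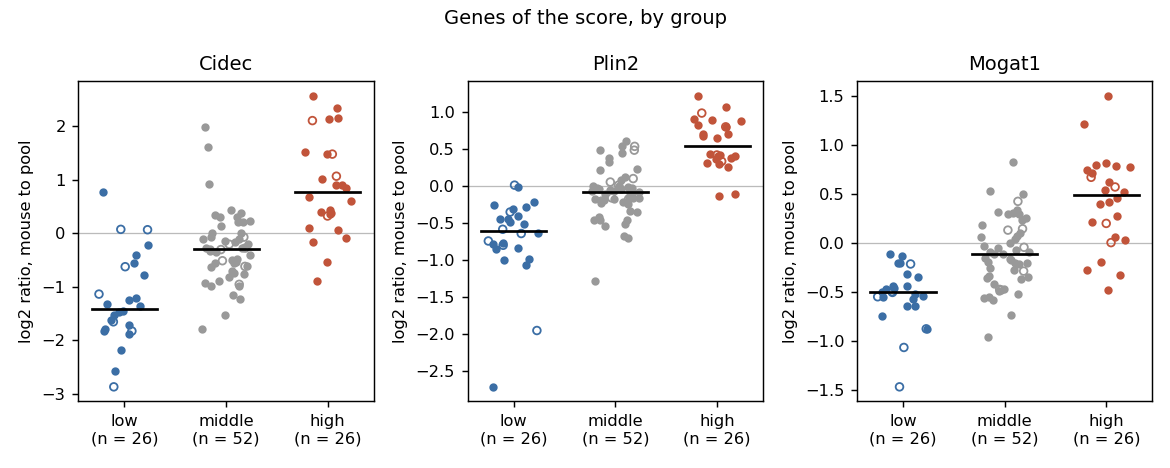
Log2 ratios of Cidec, Plin2 and Mogat1 in each low, middle and high mouse, with the group median as a bar and open points for arrays with over 700 values at the limits of the scale. The genes chose the groups, and 13, 24 and 22 high mice lie above every low mouse for Cidec, Plin2 and Mogat1.

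The arrays of the groups differed in spread. The SD over probes had a median of 0.39 log2 in high, 0.55 in low and 0.43 in middle mice. Arrays with over 700 values at the limits of the scale, here called limit-rich, numbered 4 of 26 in the high and 7 of 26 in the low group. The median mouse number was 48 in high and 73.5 in low mice. High mouse 23 and low mice 76 and 100 had a mean standardised ratio above 3 for pancreatic acinar or skeletal muscle genes, and without them 1895 genes passed the test described next, with the counts of both main lipid lists as given below. Since the score and all other genes come from the same array, an effect of the array and an effect of the mouse cannot be told apart.

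Outside the score, most tested genes of fatty acid oxidation and of lipid droplets were higher in high livers, by up to 1.96 log2. Gstm3 and 2 of 9 neutrophil genes were lower. Of 10 genes of cholesterol synthesis and its control, 4 were lower and 1 was higher. Of 12312 genes tested with limma (a linear model per gene, moderated across genes, two-sided, with Benjamini-Hochberg adjustment), 1548 or 12.6% differed at an adjusted p under 0.05. Of these, 1016 (8.25% of genes tested) were higher and 532 (4.32%) were lower in high mice. Most differences were small. Only 30 higher and 11 lower genes passed a log2 difference of 1, and the median difference was 0.32 among higher and -0.30 among lower genes. The groups overlapped for every gene tested. The median difference over all genes was 0.0017.

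Without the limit-rich arrays 775 genes (6.29%) differed, 4.43% higher and 1.87% lower, with 706 of them among the 1548, and all 1548 kept their sign. With the array SD as a covariate, an alternative chosen after seeing the data, 957 (7.77%) differed, with 897 of them among the 1548. Without the 3 highest and 3 lowest mice the count was 733. What part the spread of the arrays has in the differences was not tested.

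The 52 middle mice took no part in this comparison and their score still varied, from -0.49 to 0.42. Regressed on the score there, no gene passed an adjusted p of 0.05 in limma (smallest 0.115), while 858 (6.97%) had an unadjusted p under 0.05. Of the 1548 genes that differed between high and low mice, 1256 (81.1%) had a slope of the same sign in the middle mice, as did 6566 of the 10764 other genes (61.0%). An unadjusted p under 0.05 was reached by 267 of them (17.2%), all with the same sign, against 591 of the others (5.49%).

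Genes of droplet proteins and droplet formation, other than the score genes, were higher in high mice in 8 of 13 members tested. Of all genes 8.25% were higher, and none of the 13 was lower. The median difference of the 13 was 0.18, so most of the shift lay in a few members. They were G0s2, Plin5, Plin4, Hsd17b11, Fitm1, Rab18, Bscl2 and Lipe. This list was drawn up with earlier results of these data known, as were all lists below.

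G0s2, which inhibits the droplet lipase Pnpla2, had the largest difference of the list. Its ratio ran from -1.30 over a median of 0.46 to 2.6 in high mice and from -3.80 over -1.54 to 0.62 in low mice. The difference was 1.82 (SE 0.28, 3.53-fold, adjusted p = 4.8e-05), every high mouse lay above the median of the low mice, and 11 lay above all of them. In the middle mice G0s2 rose by 1.39 log2 per unit of score (SE 0.41, unadjusted p = 0.0014, adjusted p over 0.05 as for every gene there).

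Plin5, the perilipin of oxidative tissues that ties droplets to mitochondria, ran from -0.58 over 0.49 to 1.51 in high mice and from -1.69 over -0.36 to 0.34 in low mice. It was higher by 0.92 (SE 0.15, 1.89-fold, adjusted p = 5.9e-05), and 15 high mice exceeded every low mouse. Hsd17b11, a droplet-associated dehydrogenase, was higher by 0.70 (SE 0.14, adjusted p = 0.00051), with medians of 0.19 and -0.35. Plin4, a further perilipin, was higher by 0.81 (SE 0.24, adjusted p = 0.018), and its values were the most scattered, from -0.56 to 3.70 in high and from -3.77 to 0.94 in low mice.

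The other droplet genes moved less. Fitm1, an endoplasmic reticulum protein of droplet formation, was higher by 0.40, Rab18 by 0.36, the seipin gene Bscl2 by 0.18 and the hormone-sensitive lipase gene Lipe by 0.14. The lipase Pnpla2 itself had a difference of -0.03 (adjusted p = 0.92), its activator Abhd5 0.05, Plin3 -0.05, Hilpda -0.05 and Cidea, a relative of Cidec, -0.12. Without the limit-rich arrays, Plin4, Plin5, Fitm1, G0s2 and Hsd17b11 remained higher, 5 of 13 against 4.43% of all genes. With the array SD as a covariate Plin4, Plin5, G0s2 and Hsd17b11 did, against 5.51% of all genes. Leaving out mouse 78 of the low group also took the count to 5. In the middle mice 10 of the 13 slopes were above 0, as were 6395 of all 12312 genes. At an unadjusted p under 0.05, 4 sloped upward, against 3.78% of all genes, and 1 downward. The slope of Plin5 there was 0.49 (SE 0.29, unadjusted p = 0.10 in limma).

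Genes of fatty acid oxidation and PPAR alpha targets were higher in 16 of 18 members tested, again against 8.25% of all genes, and all 18 differences were above 0, with a median of 1.02. They included microsomal, peroxisomal and mitochondrial enzymes. Cyp4a14 (1.96) and Cyp4a10 (1.70) are microsomal omega-hydroxylases, Ehhadh is peroxisomal, and Cpt1a, Cpt2, Acadm, Acadl, Hadhb, Acaa2, Eci1 and Decr1 are mitochondrial.

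Ehhadh, the peroxisomal bifunctional enzyme, ran from -0.87 over a median of 0.47 to 1.98 in high mice and from -3.74 over -0.55 to 0.44 in low mice. Its difference was 1.43 (SE 0.23, 2.70-fold, adjusted p = 4.8e-05), and 15 high mice lay above every low mouse. Acot1, a cytosolic acyl-CoA thioesterase, ran from -0.93 over 0.59 to 1.92 in high and from -3.59 over -1.10 to 0.69 in low mice. It was higher by 1.82 (SE 0.30, 3.53-fold, adjusted p = 7.6e-05), and 26 of 26 high mice lay above the median of the low mice. Hadhb, a subunit of the mitochondrial trifunctional protein, differed by less, 0.76 (SE 0.12, 1.69-fold, adjusted p = 6.8e-05), but also had all 26 high mice above the low median.

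Cpt1a, which admits long-chain acyl groups to mitochondria, was higher by 0.56 (adjusted p = 0.00049) and Cpt2 by 0.93 (adjusted p = 0.00026). Among targets that are not oxidation enzymes, Vnn1 was higher by 1.43, the hormone Fgf21 by 1.34, the pyruvate dehydrogenase kinase Pdk4 by 1.13 and the peroxisome division factor Pex11a by 1.10. The gene of the receptor, Ppara, did not pass the test, with 0.27 (SE 0.18, adjusted p = 0.32) and medians of -0.04 and -0.26. Angptl4, another target, did not pass it either, with 0.26 (SE 0.28, adjusted p = 0.56). The Cyp4a genes are close relatives, and probes for Cyp4a10 and Cyp4a14 may share signal, as may those of Acot1 with its relatives.

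Read as 1 value per mouse, the mean standardised ratio of the 18 genes ran from -0.37 over a median of 0.66 to 1.46 in high mice and from -3.24 over -0.49 to 0.61 in low mice, and 14 high mice lay above every low mouse. Low mouse 26, which also had the lowest droplet score, held the lowest value of the low group for 11 of the 18 genes, mouse 120 for 3 and mouse 78 for 2. Their array SDs were 0.73, 0.65 and 0.52, and none was limit-rich. Mouse 26 was not low for these genes alone, nor was it low for every list. Its mean standardised ratio for 11 T and NK cell genes was 4.37, the highest of the low group. The low median there was -0.15 and the highest high mouse had 0.45. Of other lists described below, it held the lowest low-group value for 9 of 9 lipoprotein secretion and 7 of 14 triglyceride synthesis genes. The same held for 7 of 14 fatty acid uptake and 7 of 16 acute phase genes. It also held for 6 of 12 bile acid, 6 of 12 glutathione and Nrf2 and 5 of 12 endoplasmic reticulum stress genes. For drug-metabolising cytochrome P450 genes the count was 2 of 12. The mean standardised ratio of mouse 26 for that list was nevertheless the lowest of the low group. The highest values of the high group were more spread, with 6 of 18 in mouse 18 and 4 in mouse 13. Without any 1 mouse the count of higher members stayed at 15 or 16. Without the limit-rich arrays it was 15, the same as with the array SD as a covariate. In the middle mice all 18 slopes were above 0, and 13 had an unadjusted p under 0.05, against 3.78% of all genes with an upward slope at that p.

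**Figure D2:**
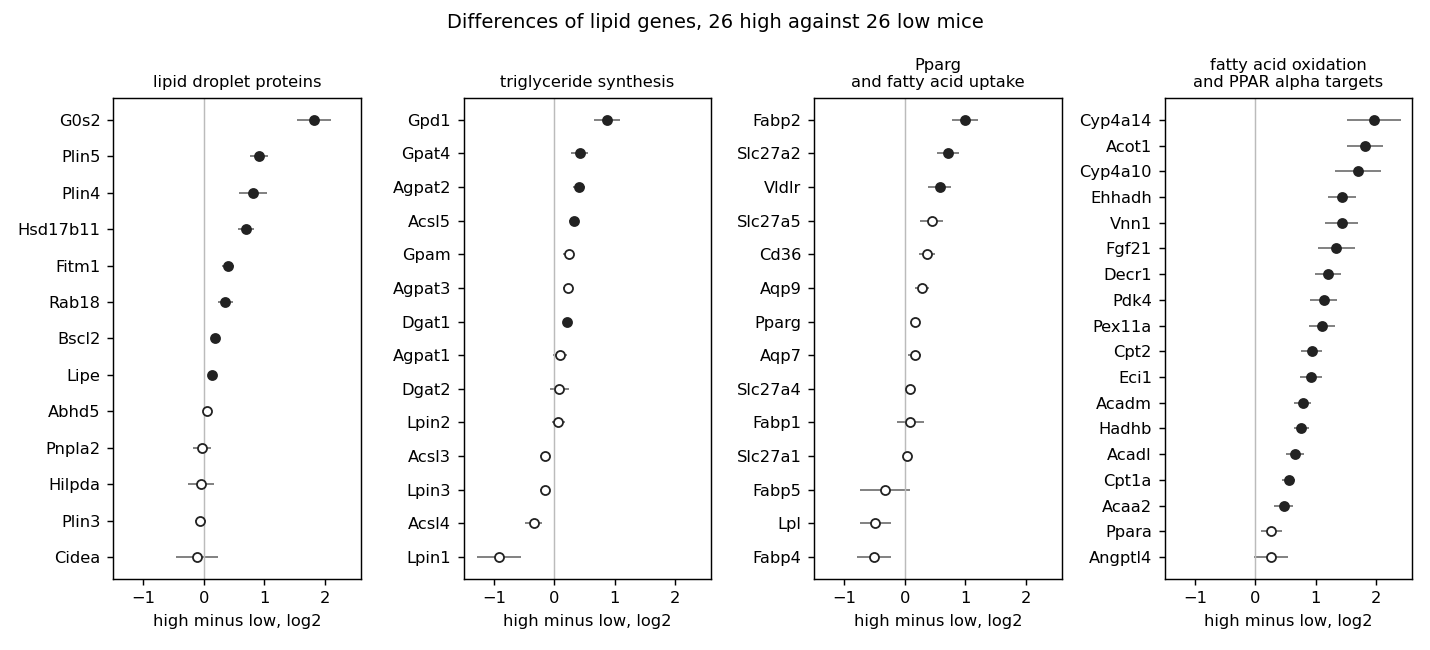
High minus low log2 difference (x axis) with its standard error for each tested member of 4 lipid lists. Filled points passed an adjusted p of 0.05, as 8 of 13 droplet genes and 16 of 18 fatty acid oxidation genes did.

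**Figure D3:**
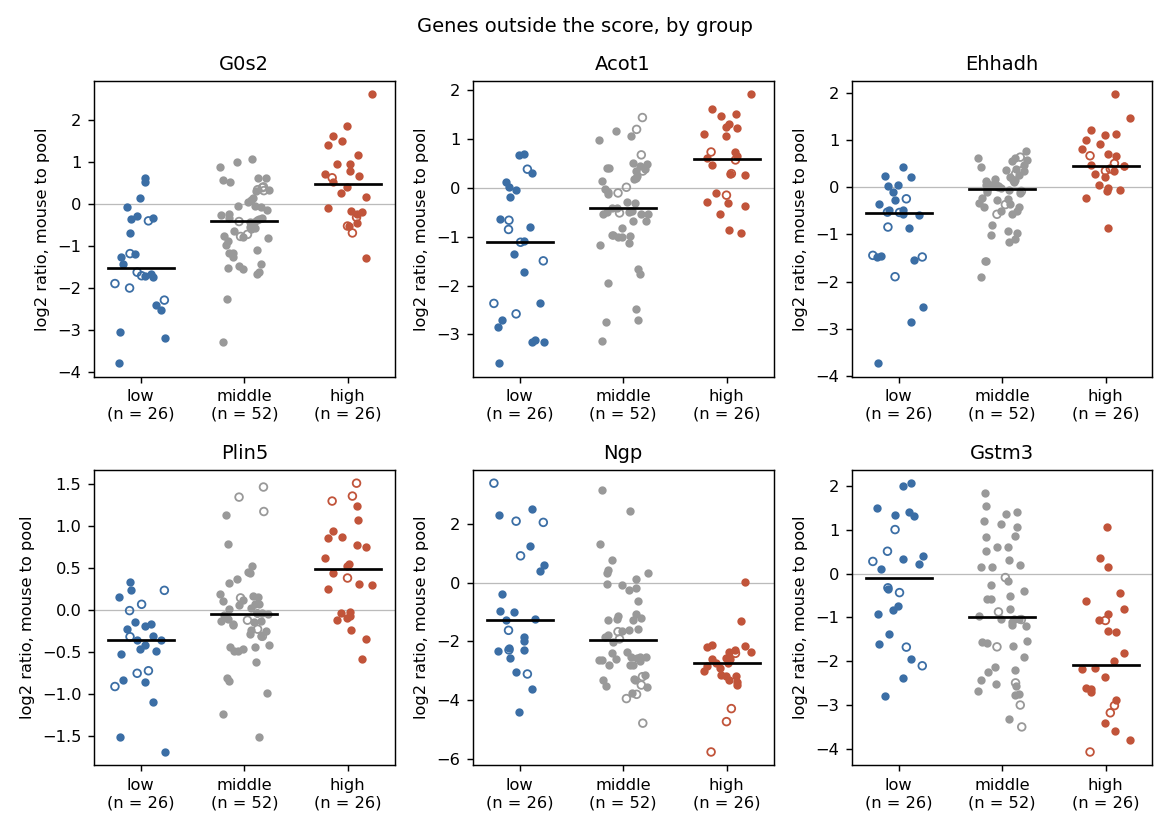
Log2 ratios of G0s2, Acot1, Ehhadh, Plin5, Ngp and Gstm3 in each low, middle and high mouse, with group medians as bars and open points for limit-rich arrays. Groups overlap in all 6, and the lowest values of G0s2, Acot1, Ehhadh and Plin5 are in low mice.

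Promoters were searched because genes of these lists moved together and PPAR alpha with its partner RXR binds repeats of the core site AGGTCA. Among 29 genes of the score or called in the lipid lists with a RefSeq promoter, 6 held the core site, on either strand, in the 250 bases before the start. The stretches of Plin2, Plin5, Slc27a2 and Cpt1a are shown as 4 examples, with the core site or its reverse complement in capitals and 30 bases on each side. They were taken from RefSeq, assembly GRCm38.p6, and are written on the strand of the gene.
Plin2 chr4:86670242-86670307, minus strand: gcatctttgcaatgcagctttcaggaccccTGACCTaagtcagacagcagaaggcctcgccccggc
Plin5 chr17:56117683-56117748, minus strand: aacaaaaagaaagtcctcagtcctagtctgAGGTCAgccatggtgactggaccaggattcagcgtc
Slc27a2 chr2:126552774-126552839, plus strand: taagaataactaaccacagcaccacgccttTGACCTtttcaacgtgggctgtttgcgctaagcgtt
Cpt1a chr19:3323177-3323242, plus strand: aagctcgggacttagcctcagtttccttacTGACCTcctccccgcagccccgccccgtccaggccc

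The first capital lay 218 bases before the start of Plin2, 170 before Plin5, 220 before Slc27a2 and 94 before Cpt1a. The core site stood in 112 of 837 higher genes with a promoter (13.4%) and 68 of 415 lower genes (16.4%). Of genes tested with a promoter, 1411 of 9739 (14.5%) held it, and 4260 of 27025 genes in all (15.8%). The full repeat, AGGTCA, any base and AGGTCA again, was in 0 of 837 higher, 1 of 415 lower, 8 of 9739 tested and 11 of 27025 genes. The looser one with AGGNCA at both places, which includes it, was in 2, 1, 44 and 108. A match is a run of letters and not a binding site, and the absence of one covers this window only.

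Genes of triglyceride synthesis were higher in 5 of 14 members and lower in none, against 8.25% and 4.32% of all genes, with a median difference of 0.15. Gpd1, which supplies glycerol 3-phosphate, ran from -0.38 over 0.34 to 1.11 in high and from -3.84 over -0.33 to 0.49 in low mice, a difference of 0.87 (SE 0.21, adjusted p = 0.0050). Agpat2, which acylates lysophosphatidic acid, was higher by 0.41 (SE 0.09, adjusted p = 0.0029) and the acyl-CoA synthetase gene Acsl5 by 0.32 (SE 0.08, adjusted p = 0.0060). Gpat4 was higher by 0.42, a call lost without the limit-rich arrays (adjusted p = 0.083), and Dgat1, which makes triglyceride from diacylglycerol, by 0.20. Dgat2, the other enzyme of that step, had a difference of 0.08 (adjusted p = 0.75), and the phosphatase gene Lpin1 one of -0.91 (SE 0.36, adjusted p = 0.083).

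Of 14 genes of fatty acid uptake with Pparg, 3 were higher, against 8.25% of all genes, and none lower (median 0.17). Fabp2, a fatty acid binding protein, ran from -0.66 over 0.17 to 1.18 in high and from -3.92 over -0.56 to 0.37 in low mice and was higher by 0.997 (SE 0.21, adjusted p = 0.0014). The acyl-CoA synthetase and transporter gene Slc27a2 was higher by 0.72 (SE 0.18, adjusted p = 0.0065) and the lipoprotein receptor gene Vldlr by 0.58 (SE 0.19, adjusted p = 0.040). Pparg, the receptor that drives Cidec and Mogat1 in fatty liver, had 0.17 (SE 0.06) and the fatty acid transporter gene Cd36 0.37 (SE 0.13). Both just missed the test, with adjusted p = 0.063 and 0.0502, and passed it without the limit-rich arrays, with 0.048 and 0.027. Slc27a2 and Vldlr did not pass without those arrays, with 0.058 and 0.062.

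Of 9 genes of lipoprotein secretion, 2 were higher, against 8.25% of all genes. Mttp, which loads lipid onto apolipoprotein B, differed by 0.56 (SE 0.16, adjusted p = 0.013) and Apoc3 by 0.39 (SE 0.13, adjusted p = 0.032). Apoa5 did not pass, with 0.28 (adjusted p = 0.12). Neither Mttp (adjusted p = 0.051) nor Apoc3 (0.17) passed without the limit-rich arrays, and Apoc3 lost its call without mouse 78. Low mouse 26 held the lowest value of the low group for 9 of 9 of these genes, and both calls held without it.

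The list of de novo lipogenesis also holds genes that elongate or desaturate fatty acids. Of its 13 members tested, Elovl5 and Fads2 were higher and Scd2 was lower, against 8.25% and 4.32% of all genes. The median difference was -0.10. Elovl5, which elongates polyunsaturated fatty acids, ran from -0.84 over 0.46 to 1.39 in high and from -2.32 over -0.83 to 0.47 in low mice, a difference of 1.09 (SE 0.19, 2.13-fold, adjusted p = 0.00011). The desaturase gene Fads2, read by 2 probes, was higher by 0.54 (SE 0.16, adjusted p = 0.019). Scd2 was lower by 0.97 (SE 0.32, 1.96-fold, adjusted p = 0.039). The synthesis genes Fasn (-0.35), Acly (-0.16), Scd1 (-0.30) and their regulator Srebf1 (-0.39) had differences below 0. None of them passed, with adjusted p from 0.065 to 0.14. Without the limit-rich arrays Elovl5 alone of the 13 passed, while Fads2 (adjusted p = 0.073) and Scd2 (0.21) did not, and with the array SD as a covariate they had 0.052 and 0.070.

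Of 10 genes of cholesterol synthesis and its control, 4 were lower and 1 higher, against 4.32% and 8.25% of all genes. Insig1, the sterol-regulated anchor of SREBP, ran from -1.12 over -0.40 to 0.69 in high and from -0.80 over 0.17 to 1.76 in low mice and was lower by 0.64 (SE 0.14, 1.56-fold, adjusted p = 0.0022). The decarboxylase gene Mvd was lower by 0.25 (SE 0.05, adjusted p = 0.00070), with 25 of 26 high mice below the low median. Sqle (-0.66) was also lower, a call lost without the limit-rich arrays (adjusted p = 0.21). Lss was lower by 0.22 as the mean of 2 probes that disagreed, 1 at -0.36 (adjusted p = 0.016) and 1 at -0.085 (adjusted p = 0.46), while Sc5d was higher by 0.63. The slope of Insig1 in the middle mice was -0.0044 (SE 0.25).

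Of 12 genes of bile acid synthesis and transport, 4 were higher, against 8.25% of all genes (median 0.45). Abcb4, the phospholipid exporter of the bile canaliculus, differed by 0.57 (SE 0.13, adjusted p = 0.0022), and 13 high mice exceeded every low mouse. The hydroxylase gene Cyp8b1 differed by 0.80 (SE 0.21, adjusted p = 0.0090), Cyp7b1 by 0.58 (adjusted p = 0.018) and the uptake transporter gene Slco1b2 by 0.87 (adjusted p = 0.033). Cyp7a1, the rate-limiting enzyme, had 0.52 (SE 0.35, adjusted p = 0.33). Without the limit-rich arrays only Abcb4 of these 12 passed. Of 5 LXR targets, the gene of the receptor Nr1h3 was higher by 0.39 (SE 0.12, adjusted p = 0.031), a call lost without mouse 120, without the limit-rich arrays (0.11) and with the array SD as a covariate (0.12). Of 7 gluconeogenic and fasting genes, Fbp1 was higher by 0.68 (SE 0.17, adjusted p = 0.0048).

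Several of the widest differences lay outside these lists. Ctse, the aspartic protease cathepsin E, had the largest positive one, 2.03 (SE 0.45, 4.09-fold, adjusted p = 0.0018). Its ratio ran from -3.34 over 0.78 to 1.95 in high and from -4.06 over -2.24 to 1.77 in low mice, so the groups overlapped along nearly their whole range. Its slope in the middle mice was 0.33 (SE 0.78). Paqr9, of the progestin and adipoQ receptor family, overlapped less. It ran from -1.69 over 0.48 to 1.48 in high and from -4.04 over -0.93 to 0.29 in low mice, with 17 high mice above every low mouse and a difference of 1.62 (SE 0.30, 3.08-fold, adjusted p = 0.00033).

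Serpinb1a, a leukocyte elastase inhibitor, was higher by 1.55 (SE 0.30, adjusted p = 0.00051), the deiodinase gene Dio1 by 1.44 (SE 0.37, adjusted p = 0.0073), the major urinary protein gene Mup5 by 1.49 (SE 0.34, adjusted p = 0.0026) and the sulfotransferase gene Sult2a8 by 1.68 (SE 0.45, adjusted p = 0.010). In the middle mice Mup5 rose by 2.36 per unit of score (SE 0.48, unadjusted p = 9.4e-06), the smallest p of the genes named here. Sult2a8 did not pass without the limit-rich arrays (adjusted p = 0.10). Mup5, Sult2a8, Gstm3 and the Cyp2b genes below belong to families of closely similar genes whose probes may share signal.

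Among lower genes, Gstm3, a glutathione transferase, ran from -4.08 over a median of -2.09 to 1.06 in high and from -2.79 over -0.11 to 2.07 in low mice. It was lower by 1.67 (SE 0.37, 3.18-fold, adjusted p = 0.0020), and 7 high mice lay below every low mouse. The transcription factor gene Cux2, female-enriched in mouse liver, was lower by 1.14 (SE 0.24, 2.21-fold, adjusted p = 0.0010), with 25 of 26 high mice below the low median, yet its slope in the middle mice was 0.0023 (SE 0.61). The E-cadherin gene Cdh1 was lower by 1.37 (SE 0.32, adjusted p = 0.0031) and D17H6S56E-5 by 1.49 (SE 0.36, adjusted p = 0.0044). Mmp7, the protease matrilysin, was lower by 1.79 (SE 0.55, adjusted p = 0.024), the surfactant protein gene Sftpd by 1.18 (adjusted p = 0.025), Bex1 by 1.27 (adjusted p = 0.034) and Plet1 by 1.06 (adjusted p = 0.025). These 4 did not pass without the limit-rich arrays, with adjusted p from 0.14 to 0.18.

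Genes of hepatocyte identity passed the test in part. Beside the counts that follow, 8.25% of all genes were higher and 4.32% lower. Of 7 general hepatocyte genes 2 were higher, Apoc3 and Tdo2 (0.51, adjusted p = 0.012), and Alb had -0.30 (adjusted p = 0.062). Of 7 pericentral genes, Oat was higher by 0.98 (SE 0.19, adjusted p = 0.00040), and all 7 differences were above 0 with a median of 0.46. Of 5 periportal genes, Hal was higher by 0.55 (adjusted p = 0.015). None of 12 drug-metabolising cytochrome P450 genes passed. In the female-biased list of 8, Cyp2b13 (0.84, adjusted p = 0.025), Cyp2b9 (0.73) and Cyp17a1 (1.01) were higher beside the lower Cux2. None of these 3 higher genes passed without the limit-rich arrays. In the male-biased list of 6 only Cyp7b1 was higher.

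Stress, clock and interferon genes moved in part. The acute phase list had 2 of 16 lower, against 4.32% of all genes, the receptor gene Il6ra by 0.65 (SE 0.12, 1.57-fold, adjusted p = 0.00020, 11 high mice below every low mouse) and the metallothionein gene Mt2 by 0.89 (SE 0.28, adjusted p = 0.026). Il6ra alone of the 16 passed without the limit-rich arrays, against 1.87% of all genes, and Mt2 did not (adjusted p = 0.075). The slope of Il6ra in the middle mice had the opposite sign, 0.083 (SE 0.26). Of 12 stress and chaperone genes of the endoplasmic reticulum 2 were higher, against 8.25% of all genes. Hspa5 and Pdia4 were each higher by 0.26 (adjusted p = 0.047 and 0.048). These calls were lost without the limit-rich arrays (0.079 and 0.17) and on leaving out any 1 of 32 and any 1 of 33 mice. Of 12 glutathione and Nrf2 targets 1 was higher and 1 lower, near the shares of all genes, 8.25% and 4.32%. Srxn1 was higher by 0.30 (adjusted p = 0.021) beside the lower Gstm3, but did not pass without the limit-rich arrays (0.14). Of 5 clock genes listed with Arntl, Clock was higher by 0.40 (SE 0.09, adjusted p = 0.0029), against 8.25% of all genes. Of 7 listed with the Per genes, 3 were lower, against 4.32% of all genes. They were Per2 (-0.56, adjusted p = 0.010), Per1 (-0.15, adjusted p = 0.012) and Usp2 (-0.61, adjusted p = 0.018). The median slope of these 7 in the middle mice was -0.015. Clock and Per1 also passed without the limit-rich arrays, and Per2 (0.080) and Usp2 (0.13) did not. The labels state no time of tissue collection.

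Of 9 interferon-induced genes 3 were higher, against 8.25% of all genes, Rsad2 by 0.61 (SE 0.12, 1.52-fold, adjusted p = 0.00088), Ifit3 by 0.45 (SE 0.11, adjusted p = 0.0051) and Ifit1 by 0.54 (adjusted p = 0.012), of which Ifit1 did not pass without the limit-rich arrays (0.068). All 9 had a positive slope on the score in the middle mice, as had 6395 of all 12312 genes, and 6 had an unadjusted p under 0.05, against 3.78% of all genes. Of 12 proliferation genes 4 were lower, against 4.32% of all genes, Mcm6 by 0.95 (SE 0.27, adjusted p = 0.016), Cdc20 by 0.68 (adjusted p = 0.024), Mki67 and Cdk1, and none of them passed without the limit-rich arrays.

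Differences of neutrophil, stellate cell and bile duct markers lay below 0, and few passed the test. Of 9 neutrophil genes all differences were below 0 (median -0.69) and 2 passed, against 4.32% of all genes. Ngp, a neutrophil granule protein, ran from -5.77 over a median of -2.74 to 0.0073 in high and from -4.40 over -1.27 to 3.39 in low mice and was lower by 2.04 (SE 0.46, 4.12-fold, adjusted p = 0.0021). The cathelicidin gene Camp was lower by 1.15 (SE 0.31, adjusted p = 0.011), a call lost without the limit-rich arrays (0.090). The calprotectin genes S100a8 (-1.11, adjusted p = 0.0501) and S100a9 (-0.91, adjusted p = 0.080) did not pass. The neutrophil list's mean standardised ratio ran from -1.92 over -0.31 to 0.75 in high and from -0.76 over 0.03 to 3.28 in low mice.

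The same mean for 14 stellate cell and fibroblast genes ran from -1.48 over -0.51 to 1.46 in high and from -1.52 over 0.23 to 1.81 in low mice, for 7 cholangiocyte genes from -0.95 over -0.39 to 0.70 and from -0.83 over -0.22 to 3.65. All differences of these 2 lists were below 0, with medians of -0.49 and -0.58, and none passed. None of 12 macrophage and Kupffer cell genes (median -0.27), 9 genes of lipid-associated macrophages (-0.49) or 6 of class II antigen presentation (-0.19) passed, nor any of 8 endothelial, 11 T and NK cell, 7 B and plasma cell, 4 erythroid or 6 pancreatic acinar genes. Of 10 skeletal muscle genes only Mylpf passed (0.26, adjusted p = 0.0497), near the 8.25% of all genes that were higher. That call was lost on leaving out any 1 of 37 mice. All 10 muscle differences were above 0 (median 0.36), and high mouse 23 held the highest value of the high group for all 10.

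Of 6 adipocyte genes 1 was higher and 1 lower, against 8.25% and 4.32% of all genes. Lipe was the higher one, and the glucose transporter gene Slc2a4 was lower by 0.65 (SE 0.17, adjusted p = 0.011). Adipoq (0.22, adjusted p = 0.23) and Retn (0.01, adjusted p = 0.94), which mark fat cells, did not pass. Whether shifts in these cells have a part in the differences of hepatocyte genes was not tested.

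**Figure D4:**
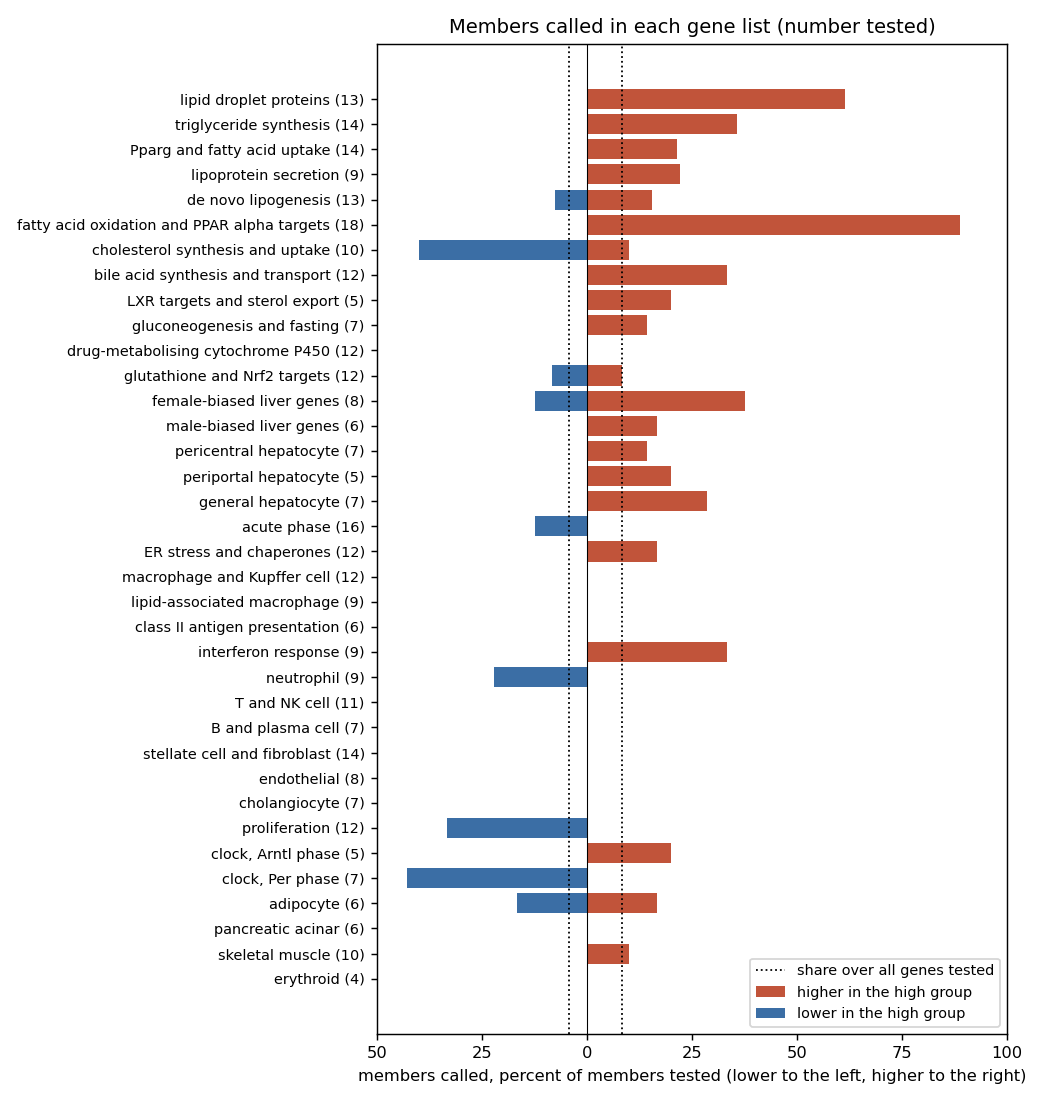
Share of tested members that were higher (to the right) or lower (to the left) in high mice for 36 gene lists, in percent, with dotted lines at the shares over all genes, 8.25% and 4.32%. The fatty acid oxidation and droplet lists reach farthest to the right.

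The 3 score genes did not sort the livers alike. When the 26 highest and 26 lowest mice were taken by 1 gene at a time, a ranking added after seeing the data, 110 genes (0.893%) differed by Cidec, 366 (2.97%) by Plin2 and 5228 (42.5%) by Mogat1. The rankings share mice, 19 high and 18 low with the 3-gene groups for Cidec, 19 and 18 for Plin2, and 17 and 16 for Mogat1. The median array SD of their high and low groups was 0.39 and 0.50 for Cidec, 0.40 and 0.61 for Plin2, and 0.46 and 0.57 for Mogat1. Limit-rich arrays in these groups numbered 3 and 5 for Cidec, 5 and 5 for Plin2, and 3 and 8 for Mogat1. The difference between rankings was not tested.

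Fatty acid oxidation genes were higher in 1 of 18 by Cidec (Pdk4) against 0.601% of all genes, in 15 by Plin2 against 2.19%, and in 16 by Mogat1 against 22.6%. G0s2 differed by 0.54 (adjusted p = 0.47) by Cidec, by 1.65 (adjusted p = 0.00041) by Plin2 and by 2.25 (adjusted p = 1.7e-09) by Mogat1. By Mogat1 alone 8 of 13 droplet genes were higher (22.6% of all genes) and 3 were lower (19.9%), namely Plin3, Cidea and Hilpda, which the 3-gene score did not call. Plin5 passed by all 3 rankings, with 0.72, 1.0 and 0.63 and adjusted p from 6.3e-05 to 0.012. For Cux2 the order was the other way, with -1.34 by Cidec (adjusted p = 0.010), -0.90 by Plin2 (0.061) and -0.43 by Mogat1 (0.22), and Insig1 likewise had -0.75 (adjusted p = 0.0029), -0.57 (0.017) and -0.21 (0.26). Srxn1 had 0.43 by Cidec (adjusted p = 0.0024) and 0.03 by Mogat1 (adjusted p = 0.83). By Mogat1 alone many cell type markers were lower, against 19.9% of all genes. They were 10 of 12 macrophage, 8 of 9 lipid-associated macrophage and 8 of 9 neutrophil genes. To these came 11 of 14 stellate cell and 5 of 7 cholangiocyte genes, but 2 of 8 endothelial and 0 of 11 T and NK cell genes. By Cidec alone 0 genes of these lists were lower.

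**Figure D5:**
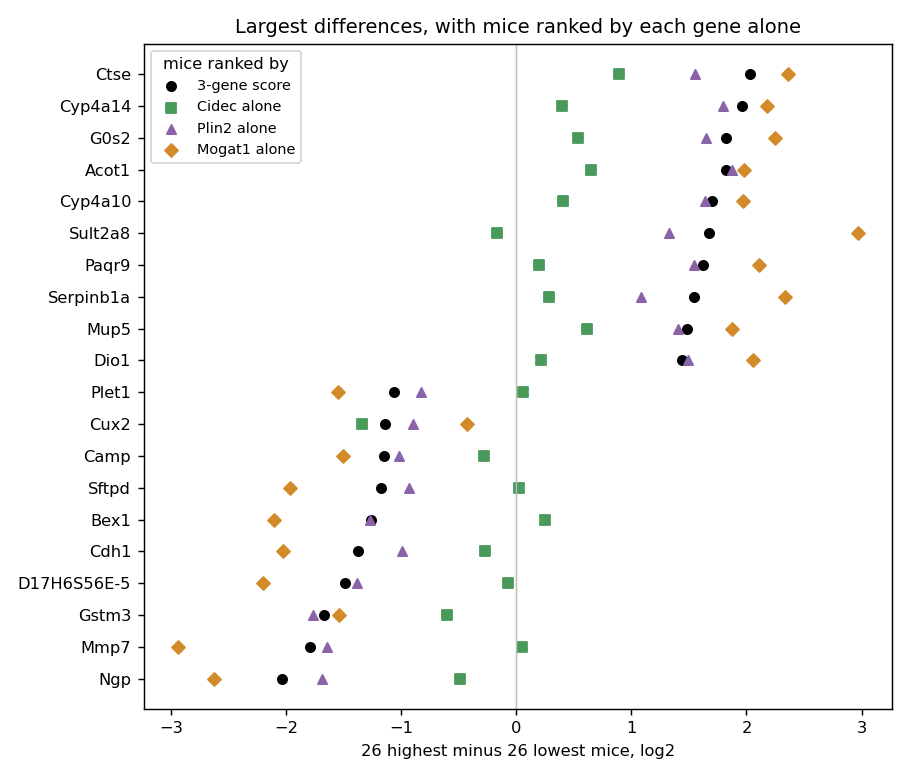
Difference between the 26 highest and 26 lowest mice, log2, for the 10 largest positive and 10 largest negative differences, with mice ranked by the 3-gene score or by 1 gene alone. Points for Cidec lie nearest 0 for all but Cux2, and those for Mogat1 lie farthest for all but Cux2 and Gstm3.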

How the data were processed

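The deposited values, 1 per probe and array, are read as log10 ratios of mouse to pool that the authors deposited in a value table, per the file headers. No dye, normalization or log base is stated in the sources used here. Values at -2 or 2 (1.07%) were set missing, and 1.69% were missing already. A value on 90% or more of the 104 arrays was asked of a probe, which kept 20633 of 23536. Of all probes 14744 had 1 gene symbol in the platform annotation, 18 several and 8774 none. Ratios were multiplied by 3.32 to give log2 values, and probes of a gene were averaged (12315 genes, 12139 named through the table of GRCm38.p6).

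High and low groups were compared with limma 3.58.1 (R 4.3.3) without covariates, tested on simulated data, and the middle mice by a slope on the score. The members and the 36 gene lists were chosen with earlier results of these data known, and no list was tested. Of 432 list entries, 342 were tested. Named are the 10 largest differences in each direction, 3 genes of smallest p per lipid list and up to 2 called genes per other list; further list members were chosen after their values were seen. A list's mean standardised ratio averages its members after scaling each over the 104 mice. The number of arrays limits the precision.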

Additional observations from a re-analysis of the deposited data

How the results depend on the processing

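Alternatives were 21 other settings and, added after seeing the data, mouse number or array SD as a covariate, rankings by 1 score gene and leaving out each mouse. The count of 1548 genes became 775 without the limit-rich arrays, 662 with mice ranked on the other arrays, 733 without the 3 highest and 3 lowest mice and 957 with the array SD as a covariate. It became 4026, 975 and 332 with Cidec, Plin2 or Mogat1 left out of the score, 110, 366 and 5228 with each alone, and 3330 with the score as a continuous covariate. Within the limit-rich arrays, 4 high against 7 low mice, limma called 0 of 11631 genes (1592 had an unadjusted p under 0.05, and 1526 of 1546 genes called over all arrays kept their sign), and 0 members of either list below. The middle mice gave 0 under each alternative run.

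Higher fatty acid oxidation genes, 16, fell to 1 by Cidec alone. Higher droplet genes, 8, became 5 without the limit-rich arrays, with mice ranked on the other arrays, without the extreme mice, without Plin2 or with mouse number as a covariate, 4 without Mogat1 or with the array SD, 2 by Cidec alone and 3 by Plin2 alone. By Mogat1 alone 8 were higher, with 3 others lower. Leaving out each mouse gave 1219 to 1933 genes, 15 to 16 oxidation and 5 to 8 droplet genes, and 52 of 61 named calls held throughout; leaving out any 1 of 21 mice ended the call of Scd2, any 1 of 19 that of Vldlr, of 32 that of Lipe and of 6 that of Bex1.

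By Cidec alone 10 named genes changed sign, none past the threshold: Sult2a8 -0.17, Mmp7 0.046, Bex1 0.25, Sftpd 0.026, Plet1 0.059, Apoc3 -0.059, Apoa5 -0.044, Scd2 0.27, Cyp2b13 -0.16 and Cyp7b1 -0.042. The causes were not tested. No paired analysis was possible because the mice form 1 group with 1 array each. Signal over background was not analysed here.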
